A study of Rattus norvegicus with 6 samples.

Results

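Spinal cord from female Sprague-Dawley rats that carry the G93A SOD1 mutation and had reached end-stage disease was set against cord from wild type (WT) littermates of the same age and sex. The comparison rests on 2 of the 6 arrays of the series: 1 end-stage mutant pool and 1 end-stage WT pool, each made from the RNA of 5 rats. The other arrays hold 1 pool of 5 rats each for mutants at the pre-symptomatic stage and at disease onset and for their WT littermates, so there are 3 WT pools in all. A gene entered the comparison where its probe had a detection p-value below 0.01 on either end-stage array. This held for 11284 of 22226 probes and for 7943 of 12978 named genes. Of these genes, 6815 were detected on both arrays, 701 on the mutant array alone and 427 on the WT array alone. The titles and the tissue label call the samples lumbar cord, while the description label reads thoracic cord. Every sample is labelled with an age of 10 weeks, although the design gives that age for the pre-symptomatic stage alone. The labels do not name the promoter or the line of the transgene. Each pool mixes its 5 rats, so the spread between rats cannot be seen.

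Mutations in SOD1, which encodes the cytosolic copper-zinc superoxide dismutase, cause inherited amyotrophic lateral sclerosis, and rats or mice with the G93A form lose motor neurons and become paralysed. Around the dying neurons, microglia and astrocytes become reactive: microglia enlarge and express phagocytic receptors, lysosomal enzymes and complement, and astrocytes express intermediate filaments, protease inhibitors and acute-phase proteins. Interferons act through STAT and IRF transcription factors, which bind interferon-stimulated response elements and GAS elements in the promoters of their target genes. Motor axons leave the cord through the ventral roots to reach muscle, while sensory neurons sit in ganglia outside it.

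The arrays were Illumina BeadChips, on which a bead type per probe gives a fluorescence intensity. All intensities below are background-subtracted values, and values of the WT pools are listed in the order presymptomatic, onset and end stage. Log2 values are normalized over the 6 arrays. Mean intensity lay between 330.9 and 332.4 on the 6 arrays, and 9116 to 10942 probes were detected, with 10549 in the end-stage mutant pool and 10122 in the end-stage WT pool. The presymptomatic mutant array had the lowest number of detected probes. Median intensity differed more: 7.21, 14.1 and 8.11 in the presymptomatic, onset and end-stage mutant pools, and 11.5, 11.7 and 9.75 in the WT pools. Whether genes lower in the end-stage mutant pool follow this order of arrays was not tested. The probe identifiers of the deposited table are out of step with its rows and were put in text order, after which 161 of 182 housekeeping genes (88.5%) were detected on all 6 arrays, against 18 of 1305 sensory receptor genes (1.38%). With the identifiers as deposited these shares were 42.9% and 37.8%. Rat Sod1, read by 1 probe, had an intensity of 7446 in the end-stage mutant pool, against 6923, 7299.6 and 8822 in the presymptomatic, onset and end-stage WT pools. These values overlap (limma log2 difference from the WT mean -0.12 ± 0.24 (SE), adjusted p = 0.81). The sources used here do not say whether this probe also reads the human transgene. Cord markers were present in the end-stage mutant pool, among them Mbp at 287, Slc18a3 at 255 and Hoxd10, a posterior patterning gene, at 1548. In the end-stage WT pool Mbp had 638, Slc18a3 had 1006 and Hoxd10 had 2134.

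By the medians of the gene lists described below, genes of phagocytes, complement, interferon response, extracellular matrix and reactive astrocytes were higher in end-stage mutant cord than in WT cord, and genes of neurons, myelin and muscle were lower. These lists were chosen with earlier results of these data known. A 2-fold difference between the 2 end-stage pools was found for 820 of 7943 genes (10.3%), 550 higher (6.92%) and 270 lower (3.4%) in the mutant pool. The same count between pairs of WT pools gave 284 of 8029 genes (3.54%) for end stage and presymptomatic, 164 of 7816 (2.1%) for end stage and onset, and 155 of 8064 (1.92%) for onset and presymptomatic. At least 2-fold beyond all 3 WT pools lay 435 genes (5.48%), 339 above (4.27%) and 96 below (1.21%). Each WT pool set against the other WT pools in this way had 68 genes (0.856%) at end stage, 19 (0.239%) at onset and 54 (0.68%) at the presymptomatic stage. Of the 68 genes of the end-stage WT pool, 65 were lower and 3 higher than in the other WT pools. With 1 pool on each side these counts carry no test.

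A test was possible by taking the 3 WT pools, which differ in age, as replicates of the WT state. Under limma, with a threshold of 0.05 on the adjusted p, 466 of 11284 probes (4.13%) passed; the end-stage mutant pool was higher for 370 (3.28%) and lower for 96 (0.851%). These probes stood for 365 named genes (4.6%), 303 higher (3.81%) and 62 lower (0.781%). The shares of 3.81% and 0.781% are the background for all counts of risen and fallen list genes below. Because the lists were chosen with earlier results known, an excess over these shares is a description and carries no test. Without adjustment, 2588 probes had a p below 0.05. Below, "rose" and "fell" are used only of genes that passed this test, "limma" followed by 2 numbers gives the log2 difference from the mean of the WT pools with its standard error, and the stage-matched difference is the log2 difference between the end-stage pools. The fit gives the single mutant pool the spread of the WT pools, and p-values measure the spread between pools. Genes detected on 1 end-stage array alone entered the test only through the pool that detected them, so their calls are a description. Without the onset WT pool, which leaves 1 residual degree of freedom and the WT pools that differed most (3.54% of genes 2-fold apart), 13 probes were called, all higher in the mutant pool. Most calls below were thus lost without that pool, and the reason was not tested. Without the end-stage WT pool 456 were called and without the presymptomatic WT pool 434. Of the calls 79.4% were higher in the mutant pool, and this share was 62.1% when arrays were aligned on their 75th percentile in place of quantiles, 63.9% with a trended and robust variance prior, 96.2% with no detection filter and 61.4% without the end-stage WT pool.

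**Figure D1:**
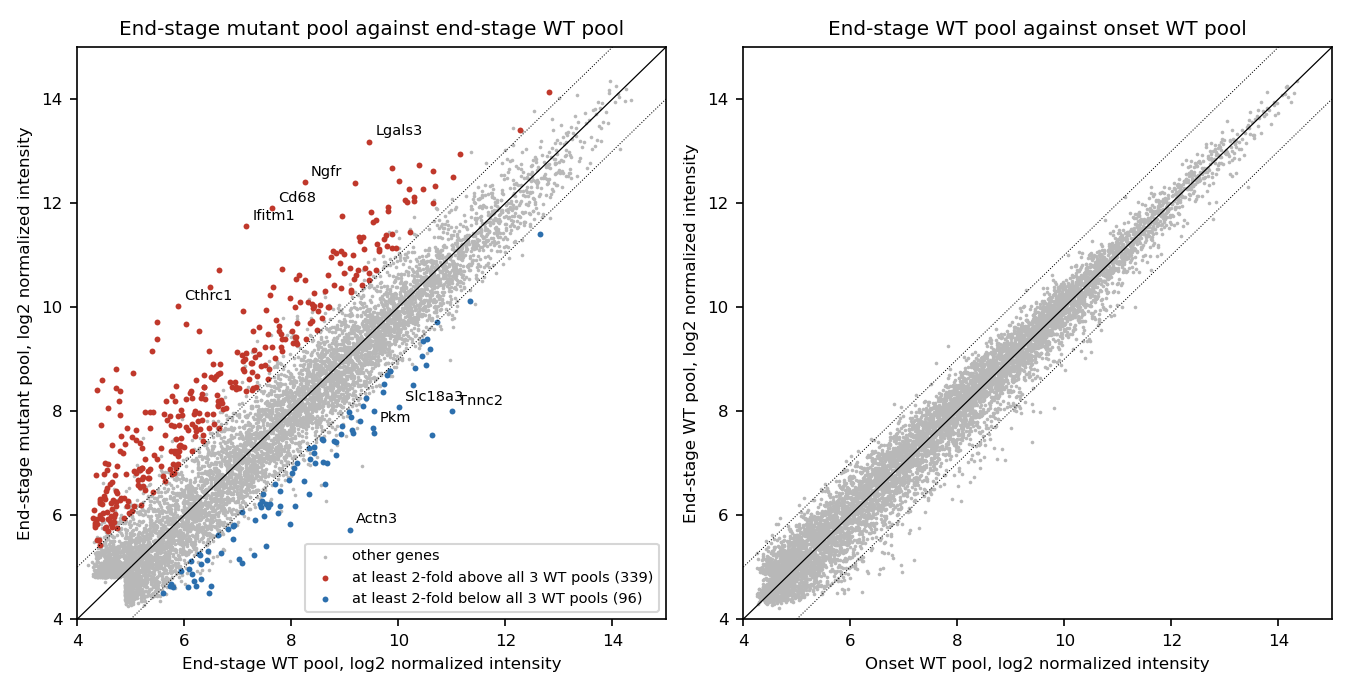
Log2 normalized intensity of the 7943 genes detected on either end-stage array, 1 point a gene, with the end-stage mutant pool against the end-stage WT pool (left) and, as background, the end-stage WT pool against the onset WT pool (right); the solid line marks equal values and the dotted lines 2-fold. On the left, the 339 genes at least 2-fold above all 3 WT pools are red and the 96 at least 2-fold below them blue; of the 7943 genes, 820 were at least 2-fold apart on the left and 148 on the right.

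The genes that exceeded the WT level most at end stage are known from immune cells, injured neurons and extracellular matrix. Ifitm1, an interferon-induced membrane protein, had an intensity of 2974 in the end-stage mutant pool, against 171, 224 and 117 in the presymptomatic, onset and end-stage WT pools. The mutant value lay above all WT values, 21.1-fold over the end-stage WT pool, and Ifitm1 rose by limma (log2 difference from the WT mean 4.09 ± 0.29 (SE), adjusted p = 0.0035). Cd68, a lysosomal membrane protein of phagocytes, had 3848 in the mutant pool, against 132, 222 and 172 in the WT pools. The WT values again lay far below, the stage-matched fold was 19.3, and Cd68 rose (limma 4.39 ± 0.30, adjusted p = 0.0035). In such bulk tissue, more cells of a type and more RNA per cell cannot be told apart. Other genes among the 20 largest differences were the collagen-associated secreted protein Cthrc1 (stage-matched log2 difference 4.13), the chemokines Cxcl9 (4.07) and Cxcl13 (3.90), the macrophage folate receptor Folr2 (3.66), the calcium-binding S100a11 (3.19), the lysophosphatidic acid receptor Lpar3 (2.76), the apolipoprotein Apoc1 (2.73), Ms4a6bl1 (2.83) and Gas7 (2.81). All 9 rose by limma, and their adjusted p ranged between 0.0047 for Lpar3 and 0.032 for Cxcl13.

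Among genes detected in the end-stage mutant pool alone, where the fold is a lower bound, Thbs2, a thrombospondin of the matrix, was at least 17.0-fold higher, Sectm1b at least 15.6-fold, the macrophage elastase Mmp12 at least 13.7-fold and Plbd1, a phospholipase B domain protein, at least 13.3-fold. The glycosyltransferase Galnt3 was at least 12.1-fold higher, Hk3, the hexokinase of myeloid cells, at least 10.8-fold, the monocyte chemoattractant Ccl2 at least 10.6-fold and the mitotic kinase Cdk1 at least 8.81-fold. The bound sets the value of the array that detected the gene against the higher of its value on the other array and the lowest value detected there. The size depends on the background correction: the measured folds of these 8 genes were 1.92 (Cdk1) to 3.55 (Thbs2) with neqc, limma's own background correction and normalization from the detection p-values, and 4.50 (Cdk1) to 7.995 (Thbs2) with an offset of 50. Epcam, an epithelial adhesion molecule, was among the 12 named genes of lowest p and had 168 in the mutant pool, against 13.4, 14.9 and 11.4 in the WT pools (limma 2.70 ± 0.22, adjusted p = 0.0047). Of the end-stage pools the mutant pool alone detected it, and its measured fold with neqc was 1.58.

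Most detected markers of homeostatic (resting) microglia were higher in the end-stage mutant pool than in the end-stage WT pool: 10 of 11, of which 5 were at least 2-fold higher. Of all genes 6.92% were at least 2-fold higher, and the share with any higher value was not counted. By limma 3 of the 11 (27.3%, against 3.81% of all genes) rose and none fell: Fcrl2, the rat gene for an Fc receptor-like protein, Aif1, the actin-bundling protein Iba1, and the fructose transporter Slc2a5. Fcrl2 had 564 in the mutant pool, against 17.9, 36.4 and 23.5 in the WT pools, a stage-matched log2 difference of 3.75 (limma 3.87 ± 0.28, adjusted p = 0.0036). Olfml3 had a stage-matched difference of 1.57 and the integrin Itgam 1.08 without passing the test. The purinergic receptor P2ry12 had 80.7 against 66.4, 115 and 64.2, within the WT range, and Tmem119 was detected in the end-stage WT pool alone (3.15 against 19.0, 18.0 and 14.3). The list median of the stage-matched difference was 0.20 over its 11 genes on the array, against -0.02 over all 12978 genes.

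Of 18 detected genes of disease-associated microglia, 8 rose and none fell. After Cd68 they were led by Lgals3, a galectin of activated phagocytes, Gpnmb, a lysosomal glycoprotein (stage-matched log2 difference 2.62), and Clec7a, a receptor for fungal glucans (2.47). Of the end-stage pools the mutant pool alone detected Clec7a. Its measured fold was 1.48 with neqc and 3.12 with an offset of 50, and it passed the test under both. Lgals3 had 9787 in the mutant pool, against 726, 1059 and 671 in the WT pools (limma 3.51 ± 0.30, adjusted p = 0.0049). Trem2, the lipid receptor of microglia, had 3277 in the mutant pool, against 576, 583 and 735 in the WT pools, and its signalling adaptor Tyrobp had 767 against 146, 164 and 145 in the same pools. Both stood above every WT value and rose (limma 2.37 ± 0.27, adjusted p = 0.0085 for Trem2). Apoe, already among the brightest genes of WT cord, had 16998 against 14094, 12848 and 16371 and did not pass the test (adjusted p = 0.42 by limma). Osteopontin, encoded by Spp1, had 9393 against 4468, 5627 and 4661 (adjusted p = 0.11 by limma). The list median was 0.97 over 19 genes on the array. The macrophage chemokine Cxcl16 reached 665 in the mutant pool but carried no detection call on either array and was not tested; 60 probes on the mutant and 69 on the end-stage WT array were brighter than 50 without such a call.

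Among phagocyte receptors and subunits of the NADPH oxidase, 13 of 23 detected genes rose and none fell, and 17 were at least 2-fold higher. Of the 23, 4 were detected in the mutant pool alone. Ncf1, the p47 subunit that assembles the oxidase, had 1706 in the mutant pool, against 201, 186 and 199.6 in the WT pools (limma 3.06 ± 0.24, adjusted p = 0.0045). The tetraspanin Cd53 (stage-matched log2 difference 2.36), the leukocyte integrin Itgb2 (2.32), the inhibitory Fc receptor Fcgr2b (2.09), the membrane subunit of the oxidase Cyba (1.94) and the high-affinity Fc receptor Fcgr1a (1.83) also rose. The scavenger receptor Cd36 had a difference of 1.92 but an adjusted p of 0.22 by limma. The list median was 1.29 over 26 genes on the array.

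Complement genes were higher across the cascade. Of 17 complement genes, all of them detected, 12 were at least 2-fold higher in the end-stage mutant pool, 9 rose by limma and none fell, with a list median of 1.40. Of the 17, 2 were detected in the mutant pool alone. The 3 chains of C1q, which start the classical pathway, all rose. C1qa had 4124 in the mutant pool, against 827, 1026 and 1112 in the WT pools, and C1qb had 6319 against 998, 1354 and 1590.3 and C1qc 2564 against 464, 618 and 613 in the same pools. For each chain the end-stage mutant value lay well above the highest WT value (limma 2.07 ± 0.27, adjusted p = 0.012 for C1qa). C1s, the protease of the C1 complex, and C4b, its substrate, rose with stage-matched log2 differences of 2.03 and 2.10. Cfd and Cfb, the proteases of the alternative pathway, rose with 2.27 and 1.18. Serping1, the inhibitor of C1 proteases, had a difference of 2.12 without passing the test (adjusted p = 0.055 by limma).

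**Figure D2:**
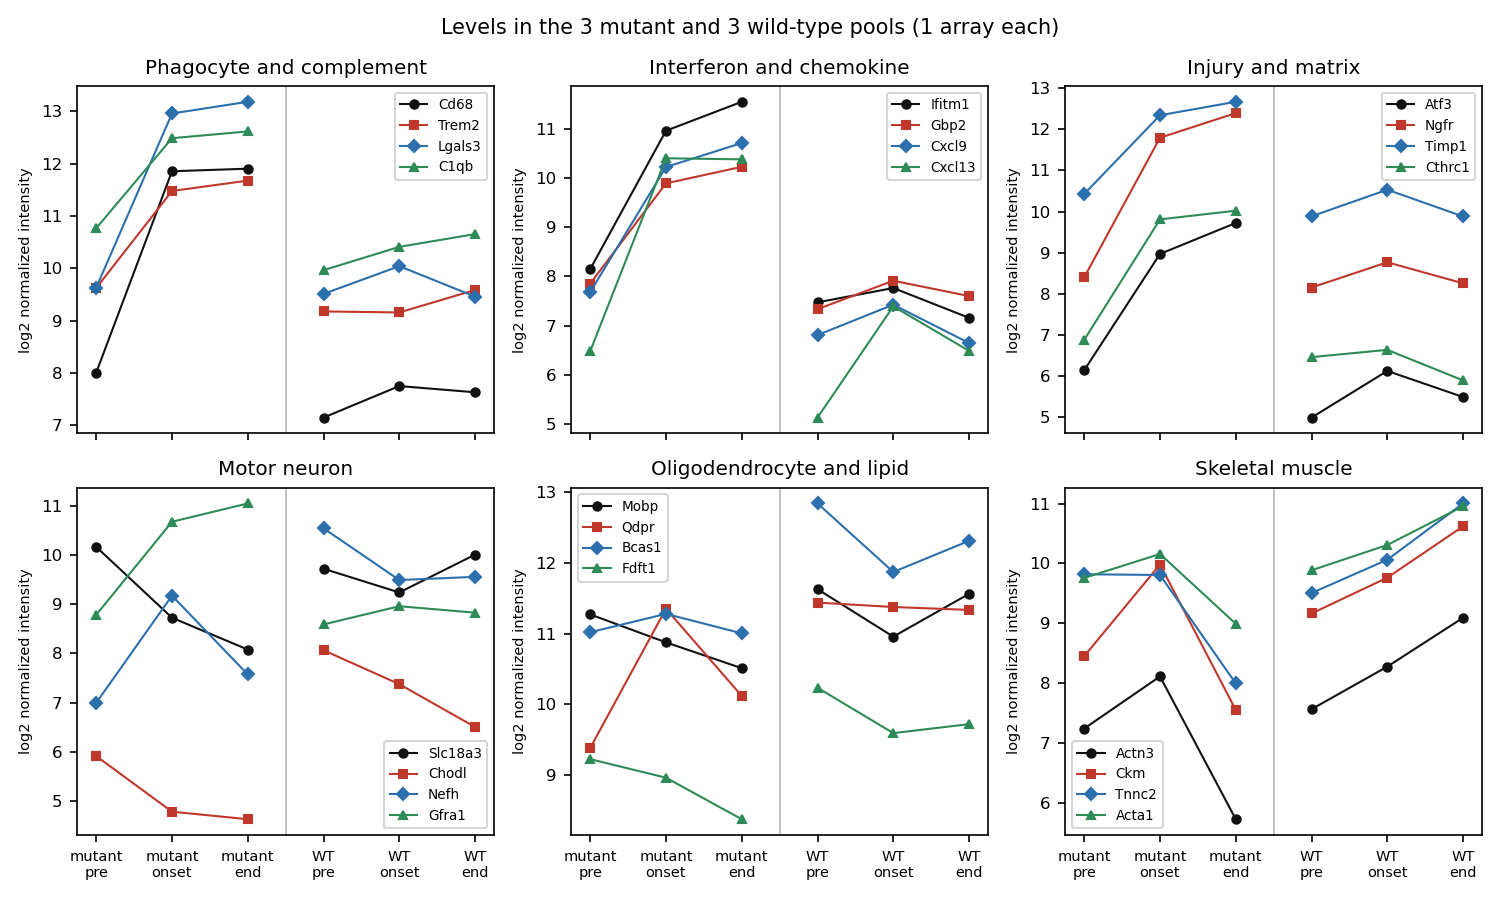
Log2 normalized intensity of 24 genes in 6 panels across the 6 pools, 1 point a pool and 1 line a gene and genotype, with the mutant pools left of the WT pools and stages running from presymptomatic (pre) to end stage. Cd68, Trem2 and C1qb are high in the onset and end-stage mutant pools alone, Slc18a3 is lowest in the end-stage mutant pool and next lowest in the onset mutant pool, and Nefh is lowest in the presymptomatic mutant pool.

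Genes induced by interferons were higher as a group, with exceptions. Of 20 detected genes of the list, 13 were at least 2-fold higher, 1 was at least 2-fold lower, and 7 rose by limma, with a list median of 0.96 over 26 genes on the array. Of the 20, 2 were detected in the mutant pool alone. After Ifitm1 and Sectm1b, the largest differences were those of Cxcl9 and Cxcl11, chemokines that attract T cells through the receptor CXCR3. Cxcl9 had 1675 in the mutant pool, against 104, 175 and 78.4 in the WT pools, and Cxcl11 had 723 against 138, 149 and 56.0 in the same pools. The guanylate-binding protein Gbp2 had 1178 against 151, 249.8 and 167 and rose (limma 2.62 ± 0.29, adjusted p = 0.0074), as did the antiviral GTPase Mx1 (1.82 ± 0.32, adjusted p = 0.03). Cxcl10, another CXCR3 ligand, had 392 against 74.7, 190.3 and 68.8 (adjusted p = 0.071 by limma), and Irf7, the factor that amplifies interferon production, had 322 against 92.1, 199 and 83.5 (adjusted p = 0.096 by limma). Bst2, also interferon-induced, had 11.1 against 22.4, 26.8 and 39.4, a stage-matched difference of -1.01.

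Antigen presentation genes had a list median of 0.83, and 5 of 21 detected genes rose while none fell. They were Cd74, the invariant chain of class II molecules (1568 in the mutant pool, against 286, 573 and 384 in the WT pools), Ifi30, a lysosomal thiol reductase (stage-matched log2 difference 1.87), RT1-DMb, which loads peptides on class II (1.76), the immunoproteasome subunit Psmb8 (1.497) and the protease Ctss, which trims the invariant chain (1.13). The class I gene RT1-A2 had a stage-matched difference of 1.35 without passing the test (adjusted p = 0.25 by limma). Class I genes of the rat MHC are near-identical copies, so their probes may read more than 1 gene.

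The promoters of these genes are shown because many hold an interferon-stimulated response element, here TTTC, any 2 bases and TTTC again on either strand, marked in capitals. Each is the RefSeq sequence on the rat assembly GRCr8 between 250 bases before and 50 bases after the annotated start, read 5′ to 3′ along the gene. Gbp2 lies at chr2:234005477-234005776, plus strand, Cxcl10 at chr14:15988816-15989115, plus strand, Psmb8 at chr20:4656982-4657281, minus strand, and Ctss at chr2:185775146-185775445, plus strand.
Gbp2: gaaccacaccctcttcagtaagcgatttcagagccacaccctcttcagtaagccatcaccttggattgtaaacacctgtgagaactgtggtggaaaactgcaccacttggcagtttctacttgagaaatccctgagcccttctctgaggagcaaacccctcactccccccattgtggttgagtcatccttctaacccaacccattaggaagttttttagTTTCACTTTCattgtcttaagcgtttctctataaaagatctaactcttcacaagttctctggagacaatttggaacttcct
Cxcl10: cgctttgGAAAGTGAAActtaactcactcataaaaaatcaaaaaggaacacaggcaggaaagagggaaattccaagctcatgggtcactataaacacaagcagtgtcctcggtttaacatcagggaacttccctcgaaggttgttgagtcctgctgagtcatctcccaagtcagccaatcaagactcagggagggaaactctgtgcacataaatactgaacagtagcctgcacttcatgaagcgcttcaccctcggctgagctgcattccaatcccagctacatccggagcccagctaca
Psmb8: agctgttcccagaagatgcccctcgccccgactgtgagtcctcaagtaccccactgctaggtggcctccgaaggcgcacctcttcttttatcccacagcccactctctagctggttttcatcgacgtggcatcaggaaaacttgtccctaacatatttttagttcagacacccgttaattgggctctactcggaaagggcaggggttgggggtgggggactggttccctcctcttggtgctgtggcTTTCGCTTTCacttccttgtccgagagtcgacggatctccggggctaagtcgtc
Ctss: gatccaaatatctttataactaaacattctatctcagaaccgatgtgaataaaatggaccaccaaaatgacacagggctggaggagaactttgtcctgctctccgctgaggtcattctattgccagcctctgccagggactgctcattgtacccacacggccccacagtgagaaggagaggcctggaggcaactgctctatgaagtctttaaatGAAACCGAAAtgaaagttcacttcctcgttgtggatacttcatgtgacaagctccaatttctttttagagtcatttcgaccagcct
The match begins 31 bases before the start in Gbp2, 243 in Cxcl10, 4 in Psmb8 and 36 in Ctss. Such a match was found in 13 of 20 promoters of the interferon list (65%) and 10 of 21 of the antigen presentation list (47.6%), against 1312 of 33469 promoters of this length (3.92%). It was found in 4 of 33 lysosomal promoters (12.1%) and in 0 of 11 complement and 0 of 17 cholesterol synthesis promoters. The GAS element, TTCNNNGAA, was found in 8 of 20 interferon promoters (40%), among them those of Cxcl9 and Cxcl11, and in 2 of 21 antigen presentation (9.52%), 1 of 11 complement (9.09%), 1 of 17 cholesterol synthesis (5.88%) and 1 of 33 lysosomal promoters (3.03%), against 2970 of all promoters (8.87%). The matches are letters only; binding was not measured.

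Chemokines and cytokine genes moved unevenly. Of 29 detected genes, 15 were at least 2-fold higher and 10 rose by limma, with none lower by either measure. Of the 29, 6 were detected in the mutant pool alone and none in the WT pool alone. These 6, Ccl2 among them, entered only through the pool in which they were higher, so their part in these counts is a description. Cxcl13, which attracts B cells, had 1337 in the mutant pool, against 23.4, 170.0 and 68.0 in the WT pools (limma 4.05 ± 0.73, adjusted p = 0.032), and Ccl2, which attracts monocytes, had 275 against 20.2, 47.8 and 10.8 in the same pools. Il18, a cytokine matured by the inflammasome, rose (stage-matched log2 difference 1.87), as did Casp1, the protease that matures it (1.69), and the growth factor Tgfb1 (1.56). Il1b had 40.0 against 29.4, 33.7 and 26.9 (adjusted p = 0.28 by limma), and Ccl5, a chemokine of T cells, had 182 against 96.7, 232 and 165, within the WT range. Tnf, Il6 and Il10 were detected on neither end-stage array. The death and injury receptors Tnfrsf1a, Tnfrsf12a and Ngfr rose, with stage-matched differences of 1.28, 1.93 and 4.14, and they were the 3 of 12 detected genes of the tumor necrosis factor receptor list that did. Cd40 of the same list, a receptor of antigen-presenting cells, had a difference of 0.98.

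Lymphocyte markers were few and dim. Of 22 genes on the array 13 were detected, 5 of them in the end-stage mutant pool alone. By limma 3 rose: Cd8a, Cd8b and Cd74 (stage-matched log2 difference 1.94), which antigen-presenting cells of other kinds also express. Cd8a, the coreceptor of cytotoxic T cells, had 197 in the end-stage mutant pool, against 15.3, 5.90 and 1.35 in the presymptomatic, onset and end-stage WT pools, a bound of at least 8.53-fold (limma 3.10 ± 0.26, adjusted p = 0.0047). The measured fold of Cd8a was 1.78 with neqc and 4.40 with an offset of 50, both below that bound, and its limma test passed under both. Its partner chain Cd8b had 90.7 against 3.66, -6.68 and -3.56 and was at least 4.39-fold higher. The measured fold of Cd8b was 1.31 with neqc, where it did not pass the test, and 2.63 with an offset of 50, where it did. Both chains were detected in the mutant and not in the WT end-stage pool. They entered the test only through the mutant pool, so their calls are a description. The T-cell kinase Lck had 26.6 against 11.7, 14.5 and 4.39 and the T-cell receptor subunit Cd3g had 116 against 75.7, 81.3 and 50.03, and neither passed the test (adjusted p = 0.11 for Lck and 0.14 for Cd3g by limma). Cd4 was detected on neither end-stage array.

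By list medians astrocyte genes went both ways: genes of the reactive list were higher and those of a general astrocyte list lower. Gfap, a member of the reactive list, had no named probe on the array. Among 24 detected reactive genes, 17 were at least 2-fold higher, 11 rose and none fell (list median 1.16). Timp1, an inhibitor of metalloproteinases, had 6626 in the mutant pool, against 942, 1471 and 913 in the WT pools (limma 2.57 ± 0.32, adjusted p = 0.011). The copper oxidase Cp had 561 against 53.7, 114 and 65.8 (limma 2.73 ± 0.35, adjusted p = 0.012), and Gbp2, Sphk1, which makes sphingosine 1-phosphate, and Aspg followed with stage-matched differences of 2.63, 2.17 and 2.15. The intermediate filament Vim had 15407 against 7939, 8316 and 8375 and lay above every WT pool without passing the test (adjusted p = 0.067 by limma). Of the general astrocyte list, 14 genes were detected, with a list median of -0.66, and 2 fell. They were Slc7a10, a transporter of small neutral amino acids, and the growth factor receptor Fgfr3 (stage-matched difference -1.19). Slc7a10 had 239.7 in the mutant pool, against 758, 594 and 715 in the WT pools (limma -1.43 ± 0.26, adjusted p = 0.033). The glutamate transporter Slc1a2 had 191 against 386, 278 and 349 (adjusted p = 0.19 by limma), Mlc1 a difference of -0.96 and the connexin Gjb6 of -0.91.

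Among S100, annexin and galectin genes, 5 of 20 detected rose, Lgals3 (stage-matched difference 3.72), S100a11 (3.19), Lgals3bp (2.14), Lgals2 and Anxa2, and none fell. Of the end-stage pools the mutant pool alone detected Lgals2. Its measured fold was 1.155 with neqc and 1.865 with an offset of 50, and it passed the test under neither. Anxa1 had a stage-matched difference of 2.47 with an adjusted p of 0.065 by limma. Extracellular matrix genes had a list median of 1.27: 23 of 31 detected were at least 2-fold higher, 1 was at least 2-fold lower, 11 rose and none fell. Of the 31, 3 were detected in the mutant pool alone. Cthrc1 had 1000.4 in the mutant pool, against 79.6, 95.6 and 38.9 in the WT pools, Thbs2 had 441 against 26.5, 48.0 and 9.63, Mmp12 323 against -1.44, 1.27 and -3.01 and Postn, the matrix protein periostin, 651 against 65.6, 49.2 and 25.8. For these 4 every WT value lay below the end-stage mutant value. The collagens Col8a1 and Col18a1 rose (stage-matched differences 2.37 and 2.26), while Col1a1 had 1118 against 1269, 599 and 293 and overlapped the WT pools (adjusted p = 0.45 by limma). Of 15 detected genes of meninges and fibroblasts, which make such matrix, 7 were at least 2-fold higher and 2 rose, the retinoic acid enzyme Aldh1a2 and the retinoic acid binding protein Crabp2 (stage-matched differences 1.87 and 1.68); Mgp had 1.61 and Lum 1.33. The summed intensity of this marker list was 54353 in the end-stage mutant pool, against 33222, 45514 and 37551 in the WT pools; its part in the matrix result was not tested. Endothelial genes had no limma call among 14 detected (4 at an unadjusted p below 0.05), with 1.58 for the adhesion molecule Icam1 as the largest difference, and the other large ones were 0.68 for Des, -0.68 for Slco1c1 and 0.65 for Vcam1.

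**Figure D3:**
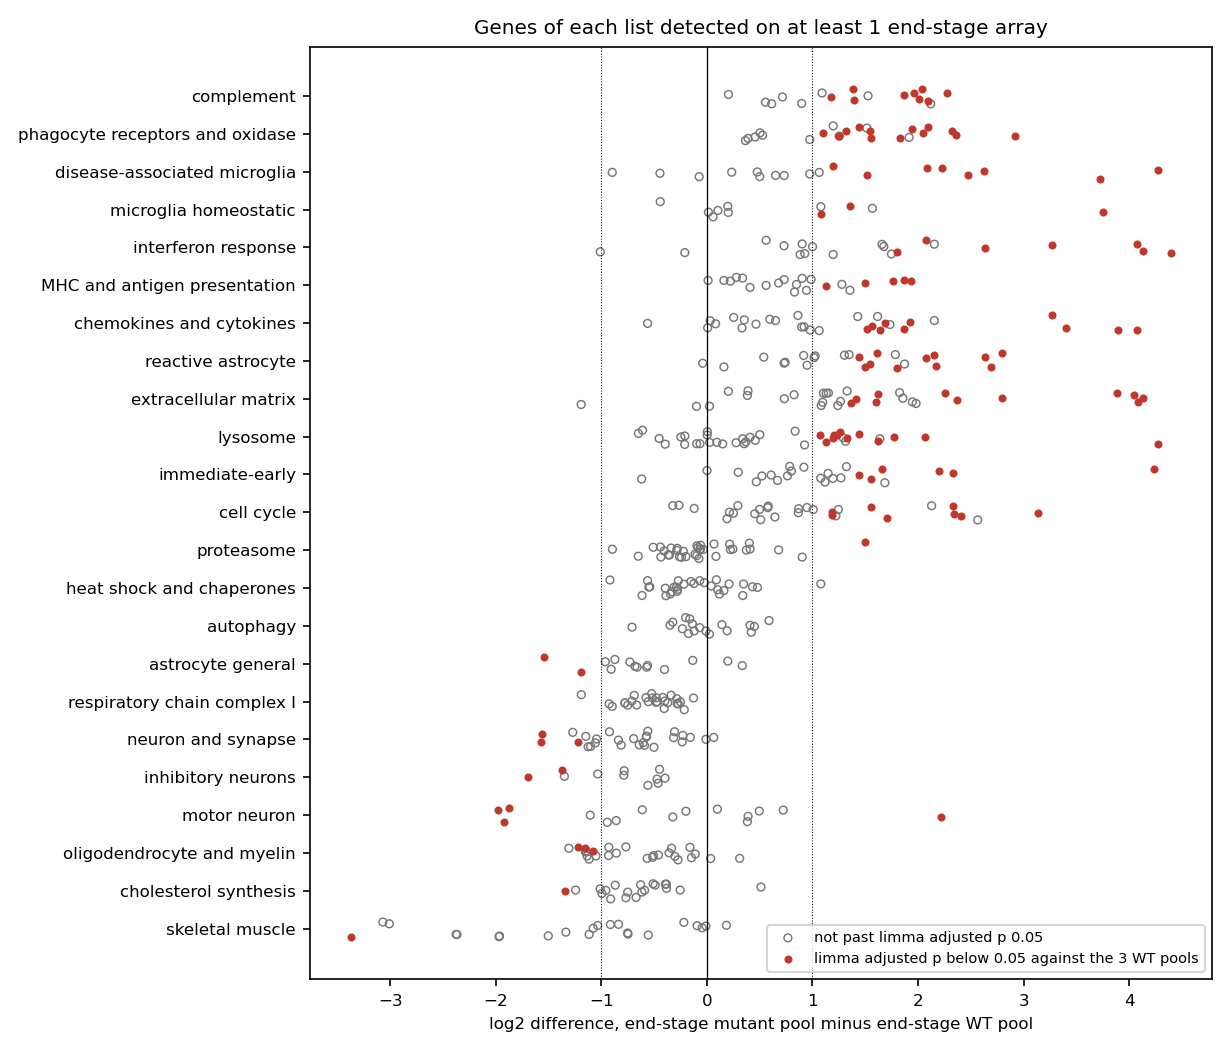
Log2 difference between the end-stage mutant and the end-stage WT pool (horizontal axis) of every detected gene of 23 gene lists (rows), 1 point a gene with a random vertical offset; filled points passed limma at an adjusted p of 0.05 against the 3 WT pools, open points did not, and dotted lines mark 2-fold. Complement, phagocyte, reactive astrocyte and matrix genes lie mostly above 0, proteasome, chaperone and autophagy genes near 0, and synaptic, myelin and muscle genes mostly below 0.

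Some genes that axon damage is known to induce rose, and others did not pass the test. Atf3, a transcription factor induced by axotomy, had 822 in the mutant pool, against 18.8, 63.0 and 25.6 in the WT pools (limma 4.19 ± 0.41, adjusted p = 0.0058). Ngfr, the p75 neurotrophin receptor, had 5322 against 280.2, 444 and 277 in the same pools, a 17.7-fold stage-matched difference (limma 4.01 ± 0.30, adjusted p = 0.0037). Both stood above all WT values. Of 21 detected genes of the nerve injury list, 5 rose, Atf3, Ngfr, the growth arrest gene Gadd45a (stage-matched difference 2.22), Tnfrsf12a (1.93) and Jun (1.55), and none fell, while Anxa1 had a difference of 2.47. Gap43, a growth cone protein, had 4187 against 4254, 3506 and 4889 and Sprr1a 177 against 176, 241 and 150.4, both within the WT range.

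Immediate-early genes had a list median of 0.92, with 13 of 24 detected at least 2-fold higher, 6 risen and none fallen. Beside Atf3 and Jun these were Fosl1 (stage-matched difference 2.33), Junb (2.19), Zfp36 (1.66), which destabilises cytokine mRNA, and Myc (1.44). Ier5 had a difference of 1.69 (adjusted p = 0.086 by limma) and Fos an intensity of 325 against 79.7, 120.4 and 129 (adjusted p = 0.054). Of 34 detected trophic factors and receptors 5 rose: Ngfr, Gfra1, the GDNF co-receptor of motor neurons (2094 in the mutant pool, against 378, 506 and 422 in the WT pools, limma 2.25 ± 0.25, adjusted p = 0.0081), its family ligand Artn (stage-matched difference 2.09), Bmp7 (1.97) and Tgfb1. Ntrk2, the BDNF receptor, had a difference of -1.17 (adjusted p = 0.061 by limma).

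Lysosomal genes rose in part. Of 38 detected, 15 were at least 2-fold higher, 12 rose and none fell, with a list median of 0.41. Ctsd, the main aspartic protease, had 4791 in the mutant pool, against 992, 1314 and 1144 in the WT pools (limma 2.09 ± 0.26, adjusted p = 0.011), and Grn, the progranulin gene mutated in frontotemporal dementia, had 2637 against 617, 850.0 and 844 in the same pools. The glucuronidase Gusb rose (stage-matched difference 1.77), as did Npc2, which carries cholesterol out of the lysosome (1.33), and the legumain gene Lgmn (1.26), while the collagen-degrading Ctsk had a difference of 1.64 without passing the test. Autophagy genes had no 2-fold difference and no limma call among 18 detected (1 at an unadjusted p below 0.05), and the largest stage-matched differences were -0.71 for the kinase Ulk1, 0.59 for Nbr1, 0.45 for Gabarap and 0.42 for Atg16l1. In lipid handling, 4 of 27 detected genes rose, Apoc1 (stage-matched difference 2.73), the lipid droplet protein Plin2 (1.67), the phospholipid transfer protein Pltp (1.48) and Npc2, and 1 fell, the acyl-CoA synthetase Acsl6 (-1.08). Cd36 had a difference of 1.92 and the desaturase Scd of -1.42.

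Of 34 cell cycle genes on the array, with a list median of 0.61, 17 were detected on both end-stage arrays and 12 on the mutant array alone. These 12 entered the test only through the pool in which they were higher, so the 8 of 29 that rose are a description. Cdk1 had 226 in the mutant pool, against 69.2, 30.1 and 10.9 in the WT pools (limma 2.47 ± 0.51, adjusted p = 0.046, with 0.077 under neqc and 0.058 with an offset of 50). Cyclin Ccnb2 had 235 against 93.4, 36.1 and 23.9 and did not pass the test (adjusted p = 0.06 by limma), whereas the kinesin Kif22 (stage-matched difference 2.41), the spindle protein Prc1 (2.34) and cyclin Ccnd1 (2.33) rose. Genes of apoptosis and p53 rose in 5 of 24 detected: Gadd45a (stage-matched difference 2.22), Casp1 (1.69), Gadd45g (1.48), Tnfrsf1a (1.28) and the necroptosis kinase Ripk3 (1.12), with 1.37 for Casp4, which did not pass the test.

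Of 15 detected markers of motor neurons, 9 had a lower value in the mutant than in the WT pool at end stage, 4 of them at least 2-fold, and 6 were higher, 1 of them at least 2-fold (list median -0.20 over 17 on the array). Slc18a3, the vesicular acetylcholine transporter, had 255 in the end-stage mutant pool, against 839, 610.1 and 1006 in the presymptomatic, onset and end-stage WT pools, lower in the mutant than in any WT pool (limma -1.58 ± 0.33, adjusted p = 0.046). Chodl, a marker of fast motor neurons in mice, had 5.82 against 262, 167 and 69.2 in the same pools and was below detection in the end-stage mutant pool, at least 3.45-fold lower (limma -2.68 ± 0.53, adjusted p = 0.04). Its measured fold was 1.21 with neqc and 2.12 with an offset of 50, where it did not pass the test (adjusted p = 0.47 and 0.11 by limma). Nefh, the heavy neurofilament chain of large axons, had 176 against 1483, 724 and 719 (limma -2.29 ± 0.42, adjusted p = 0.035). These were the 3 of 15 detected genes of the list that fell, and Gfra1 was the 1 that rose. The choline transporter Slc5a7 had 49.4 against 222, 79.3 and 103 (adjusted p = 0.29 by limma). Nefl and Nefm had stage-matched differences of -1.11 and -0.94, and Isl1, a transcription factor of motor neurons, had 21.3 against 2.65, 24.4 and 12.03, overlapping the WT pools.

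Neuronal and synaptic genes had a list median of -0.62: 9 of 27 detected were at least 2-fold lower, none at least 2-fold higher, and 3 fell by limma. The 3 were Vamp1, a synaptobrevin of the cord and brain stem (82.8 in the mutant pool, against 739, 588 and 273 in the WT pools, limma -2.32 ± 0.47, adjusted p = 0.043), the surface glycoprotein Thy1 (113 against 661, 531 and 357) and the dendritic microtubule protein Map2 (129 against 330.2, 461 and 313). Cplx1, a complexin of fast release, had a difference of -1.27 (adjusted p = 0.1 by limma). Of 11 detected genes of inhibitory neurons 2 fell, the calcium buffer Calb2 (125 in the mutant pool, against 470.5, 336 and 428 in the WT pools, limma -1.55 ± 0.29, adjusted p = 0.036) and Slc32a1, which loads GABA and glycine into vesicles (174 against 722, 574 and 456). The glycine transporter Slc6a9 had a stage-matched difference of -1.35 and Pvalb of -1.03, while Gad1 and Gad2, which make GABA, had differences of -0.45 and -0.79. Pvalb is also on the skeletal muscle list described below, and the part of muscle in its difference was not tested. None of the 9 detected glutamate receptor and transporter genes, 22 neuropeptide genes or 23 ion channel genes passed limma's test, and 3, 8 and 10 of them had an unadjusted p below 0.05, all lower in the mutant pool. Their list medians were -0.34, -0.59 and -0.49.

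For the glutamate genes the largest stage-matched differences were -1.11 for the NMDA receptor subunit Grin2c, -0.85 for the kainate receptor subunit Grik5, -0.84 for Grin1 and -0.82 for the vesicular glutamate transporter Slc17a6. Among neuropeptide genes they were -1.39 for cholecystokinin, Cck, -1.39 for chromogranin Chga, -1.14 for Calcb and -1.12 for Nppc. Among channels they were -1.86 for the pacemaker channel Hcn2, -1.41 for Cacng2, -1.05 for Kcnc1 and -1.02 for Cacnb1. Outside the lists, the inward rectifier potassium channel Kcnj14 fell (67.2 in the mutant pool, against 373, 246 and 293 in the WT pools, limma -1.85 ± 0.31, adjusted p = 0.026), as did the calcium sensors Caln1 and Cabp1 (stage-matched differences -1.89 and -1.76).

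Axonal transport genes and tubulins had a list median of -0.73 with all 33 detected: 3 fell, Nefh, the neuronal kinesin heavy chain Kif5a and Map2, and 1 rose, Tubb6 (stage-matched difference 1.51). Kif5a, mutated in familial motor neuron disease, had 43.8 in the mutant pool, against 195, 232 and 155 in the WT pools (limma -1.67 ± 0.24, adjusted p = 0.018). Among the 8 named lower genes of lowest p were also Sptbn4, the spectrin of axon initial segments and nodes (184 in the mutant pool, against 724, 625 and 527 in the WT pools), the synaptotagmin Syt3 (53.9 against 215, 216 and 161) and the neuronal stress kinase Mapk10 (5.70 against 107, 86.3 and 53.6, at least 2.83-fold lower). The others were Pkm, the proton pump subunit Atp6v0e2 (78.6 against 678, 572 and 367), Tmem125 (23.3 against 333, 197 and 158) and Lyrm9 (2.56 against 101, 124 and 65.9, at least 3.33-fold lower). All of them lay below every WT pool. With neqc the measured fold was 1.15 for Mapk10 and 1.21 for Lyrm9, and neither passed the test. With an offset of 50 the folds were 1.85 and 2.15, and Lyrm9 passed it while Mapk10 did not. Slc48a1, a heme transporter, Ppp2r5b, a phosphatase subunit, and Rlbp1, a retinoid-binding protein, were among the 20 largest deficits (stage-matched differences -2.14, -2.07 and -1.99) and fell. Of the 19 genes of familial ALS on the array 17 were detected: Grn rose, Kif5a fell, Tuba4a had a stage-matched difference of -0.92 and the dynactin gene Dctn1 of -0.85.

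Oligodendrocyte and myelin genes were lower, with all 26 on the array detected, a list median of -0.67, 9 at least 2-fold lower and 3 fallen by limma. The 3 were Qdpr, a pteridine reductase (1077 in the mutant pool, against 2786, 2595 and 2562 in the WT pools, limma -1.27 ± 0.23, adjusted p = 0.032), carbonic anhydrase Car2 (657 against 1532, 1456 and 1466) and the transcription factor Nkx6-2 (427 against 986, 913 and 894). The myelin basic protein gene Mbp had 287 against 2451, 1399 and 638. Its end-stage mutant value was the lowest of the 4, but the WT pools themselves spread widely (adjusted p = 0.1 by limma). Bcas1 had a stage-matched difference of -1.31, Gpr37 -1.15 and Mog -0.93. Of 9 detected genes of oligodendrocyte precursors none passed limma's test and 3 had an unadjusted p below 0.05; the stage-matched difference was -1.12 for Olig1, -0.91 for Tnr, -0.81 for Neu4 and 0.73 for Vcan. Cholesterol synthesis, on which myelin depends, had a list median of -0.63, with 1 of 20 detected genes fallen, the squalene synthase Fdft1 (317 in the mutant pool, against 1206, 781 and 808 in the WT pools, limma -1.47 ± 0.31, adjusted p = 0.046). Insig1, Tm7sf2 and Sqle had differences of -1.25, -1.01 and -0.996 without passing it.

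Mitochondrial genes were slightly lower as a group. All 27 detected genes of respiratory complex I and all 28 of complexes II to V had lower values in the mutant pool than in the WT pool at end stage. The list medians were -0.48 and -0.29, against -0.02 over all 12978 genes, and the share of all genes with a lower value was not counted. None passed limma's test; 5 of complex I and 1 of the others had an unadjusted p below 0.05, and 1 was at least 2-fold lower, Ndufa8 (1089.8 in the mutant pool, against 2189, 2109.7 and 2555 in the WT pools, adjusted p = 0.066 by limma). The next stage-matched differences of complex I were those of Ndufb3 (-0.93), Ndufb8 (-0.90) and Ndufs7 (-0.78), and of the other complexes Atp5pf, Sdha, Uqcrh and Atp5f1d (-0.55, -0.55, -0.54 and -0.46). Pkm, pyruvate kinase, was the 1 glycolytic gene of 24 detected that fell (189.6 in the mutant pool, against 780.4, 825 and 705 in the WT pools, limma -1.93 ± 0.23, adjusted p = 0.0097). Glycogen phosphorylase Pygl had a stage-matched difference of 1.31, and the muscle forms Eno3 and Pgam2 of -1.08 and -0.92. The 18 genes of the citric acid cycle had a median of -0.42 and no call by limma (6 at an unadjusted p below 0.05), with differences of -1.30 for Me1, -0.74 for Mdh1, -0.71 for Dlst and -0.67 for Got1.

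Genes of protein quality control differed little. Of 35 detected proteasome genes 1 rose (2.86%, against 3.81% of all genes), the interferon-induced Psmb8 (stage-matched difference 1.497). Psmb9 had a difference of 0.90, Psmc5 of -0.90 and Psme1 of 0.68. None of 30 detected chaperone genes or 19 genes of endoplasmic reticulum stress passed limma's test, and 2 of each had an unadjusted p below 0.05. The largest differences were 1.08 for Hspa2, -0.92 for Hspe1, -0.61 for Hspb6 and -0.56 for Stip1, and 1.12 for Ppp1r15a, -0.65 for Asns, -0.61 for Chac1 and 0.35 for Pdia3. Of 41 detected antioxidant genes 3 rose: the metallothionein Mt1 (6987 in the mutant pool, against 1507, 1369 and 1297 in the WT pools, limma 2.28 ± 0.23, adjusted p = 0.0062), Mgst2, a microsomal glutathione transferase (stage-matched difference 2.24), and the secreted peroxidase Gpx3 (1.12); Gpx2 had a difference of 0.91. Heme oxygenase, encoded by Hmox1, had 332 against 161, 165 and 183 (adjusted p = 0.085 by limma), and the brain metallothionein Mt3 had 13495 against 12866, 14313 and 16087, within the WT range. In iron handling, Cp and the phagosomal metal transporter Slc11a1 (stage-matched differences 2.69 and 1.16) rose among 15 detected, with 1.87 for Lcn2, which did not pass the test. Of 55 detected genes of the cytosolic ribosome none was called by limma (8 at an unadjusted p below 0.05) and 47 were higher than in the end-stage WT pool. The share of all genes with a higher value was not counted. The list median was 0.17, against -0.02 over all genes on the array. The largest stage-matched differences were 1.11 for Rps13, -1.02 for Rplp2, 0.87 for Rps16 and 0.86 for Rpl30.

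Markers of tissues outside the cord differed between pools. Of 22 detected genes of skeletal muscle 12 had end-stage mutant values lower by 2-fold or more than the end-stage WT value and 1 fell by limma, the fast-fibre actinin Actn3 (33.1 in the mutant pool, against 182, 319 and 510.0 in the WT pools, limma -2.59 ± 0.52, adjusted p = 0.042). Creatine kinase Ckm had 173 against 571, 883 and 1554, fast troponin Tnnc2 237 against 724, 1073 and 2023 and the myosin light chain Myl11 104 against 235, 405 and 604 in the same pools, and none of these passed the test (adjusted p = 0.054, 0.064 and 0.1 by limma). The summed intensity of the muscle list was 3539 in the end-stage mutant pool, against 6263, 8399 and 11486 in the WT pools, with 5864 and 8268 in the presymptomatic and onset mutant pools. Their part in other results was not tested.

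Sodium channels of pain-sensing neurons of the dorsal root ganglia stood out among sensory genes. Scn10a had 416 in the end-stage mutant pool, against 19.0, 122 and 15.7 in the presymptomatic, onset and end-stage WT pools, and 28.8 and 8.67 in the presymptomatic and onset mutant pools (adjusted p = 0.064 by limma). Scn11a had 111 against 3.99, 35.7 and 3.90 in the same pools and rose (limma 2.17 ± 0.40, adjusted p = 0.035). Of the end-stage pools the mutant pool alone detected it. The measured fold of Scn11a was 1.36 with neqc and 2.855 with an offset of 50, and it passed the test under neither. Nefh, which the ganglion list shares with the motor neuron list, fell. Calcb had 221 against 348, 286 and 493, Trpv1 54.6 against 16.8, 33.5 and 18.9 and Prph 2854 against 3778, 2969.6 and 4560.2, and these did not pass the test. The summed intensity of the 11 ganglion genes was 5020 in the end-stage mutant pool, against 6595, 5371 and 6885 in the WT pools. In the Schwann cell list, Ngfr was the 1 of 8 detected genes that rose; the sodium channel Scn7a had 659 against 232, 907 and 239, and the stage-matched difference was 1.17 for Dhh and 0.80 for Egr2.

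Granulocyte genes had no limma call among 8 detected (1 at an unadjusted p below 0.05), although 6 were at least 2-fold higher than in the end-stage WT pool. Of the 8, 3 were detected in the mutant pool alone. The defensin-like Np4 had 214 against 402, 71.9 and 42.3, Defa5 461 against 1051, 174 and 116, S100a8 684 against 1161, 286 and 217 and Lcn2 576 against 304, 173 and 136, and for Np4, Defa5 and S100a8 the presymptomatic WT pool lay highest. The list summed to 2077 in the end-stage mutant pool, against 3254, 811 and 589 in the WT pools. Of the 5 detected erythroid genes none was called by limma and 2 had an unadjusted p below 0.05; the stage-matched difference was -1.15 for Alas2, an enzyme of heme synthesis, -0.86 for Hbb-b1, -0.42 for Ahsp and -0.36 for Hbb. Ependymal genes had no limma call and no unadjusted p below 0.05 among 7 detected, with stage-matched differences of -0.59 for Dnai1, 0.32 for Tekt1, 0.26 for Mlf1 and -0.25 for Tekt4. Hox genes, whose levels depend on the segment of cord taken, had no limma call among 14 detected (2 at an unadjusted p below 0.05) and summed to 7333 in the end-stage mutant pool, against 10915, 8394 and 10430 in the WT pools; Hoxa7 had an intensity of 651 against 1071, 951 and 1286, and the stage-matched differences were -0.91 for Hoxd3, -0.79 for Hoxb9 and -0.56 for Hoxb5.

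**Figure D4:**
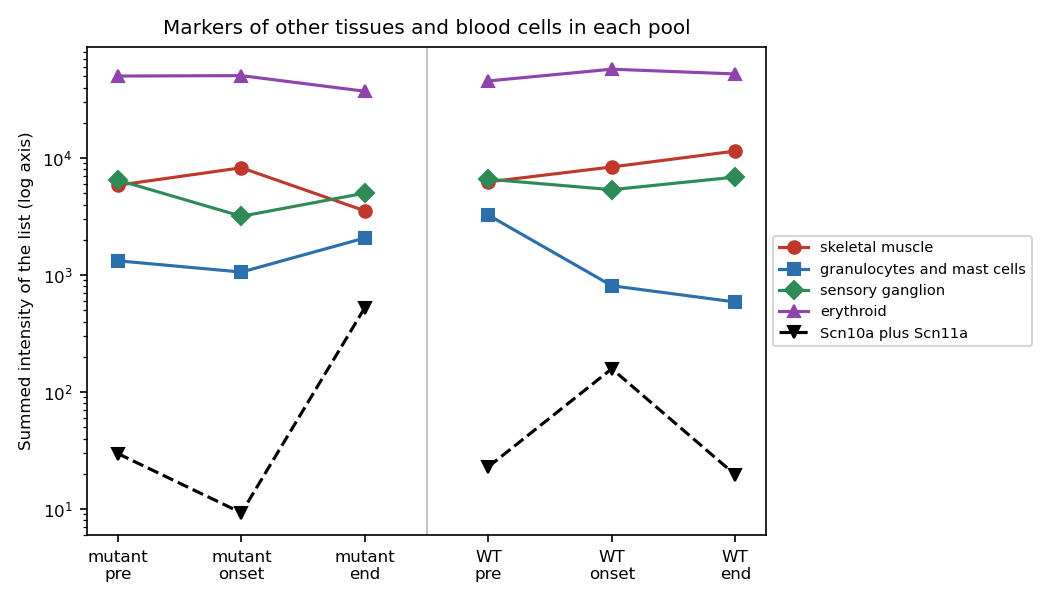
Summed intensity (log axis) of the marker lists of skeletal muscle, granulocytes, sensory ganglion and erythroid cells, and of Scn10a plus Scn11a (dashed), in the 6 pools, mutant pools left of WT pools, 1 point a pool. The muscle sum is lowest in the end-stage mutant pool (3539) and highest in the end-stage WT pool (11486), and the granulocyte sum is highest in the presymptomatic WT pool (3254).

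The other mutant pools show how far these genes had moved at earlier stages. The 339 genes at least 2-fold above all WT pools had a median log2 intensity of 8.34 in the end-stage mutant pool, against 6.22, 6.61 and 6.34 in the WT pools, and of 6.59 and 7.78 in the presymptomatic and onset mutant pools. All 339 had a lower value in the presymptomatic than in the end-stage mutant pool, against 49.3% of all 7943 genes. At onset 39 (11.5%) were higher than at end stage, against 43.4% of all genes. Cd68 had 203 and 3449 in the presymptomatic and onset mutant pools, and Trem2 had 761 and 2715. Both were near the WT level in the first and near the end-stage level in the second. Ifitm1 had 231 and 1917, Atf3 37.4 and 503 and C1qb 1752 and 5533 in these 2 pools. Since the genes were chosen on the end-stage mutant pool, that it stands highest is no finding.

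The 96 genes at least 2-fold below all WT pools had medians of 6.60 in the end-stage mutant pool, against 8.66, 8.41 and 8.06 in the WT pools, and of 6.84 and 8.43 in the presymptomatic and onset mutant pools. All 96 had a higher value at onset than at end stage, against 43.4% of all 7943 genes. In the presymptomatic mutant pool 40 (41.7%) were lower than in the end-stage one, against 49.3% of all genes. Since the genes were chosen as low in the end-stage mutant pool, that other pools lie above it is no finding. Between the presymptomatic and the onset mutant pool, which the choice of genes did not use, 50 of the 96 (52.1%) were at least 2-fold lower in the presymptomatic pool, against 794 of all 7943 genes (10.0%). Among the 339 higher genes it was 174 (51.3%), so this share is not particular to the lower genes. Pkm had 63.8 and 726 and Nefh 85.3 and 574 in the presymptomatic and onset mutant pools, so their lowest values were presymptomatic. The same held for Atp6v0e2 (43.3 and 460), Lyrm9 (-5.17 and 96.0), Sptbn4 (47.5 and 563) and Syt3 (9.61 and 196), and for Hcn2, Caln1 and Cabp1. In the same pools Slc18a3 had 1135 and 430.4 and Chodl 29.5 and 15.8. The other 56 of the 96 were not lower in the presymptomatic than in the end-stage mutant pool, and 23 of these were at least 2-fold above their end-stage mutant value there, Chodl, Actn3, Mapk10, Thy1, Kif5a, Kcnj14, Slc18a3, Slc7a10 and Mbp among them.

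**Figure D5:**
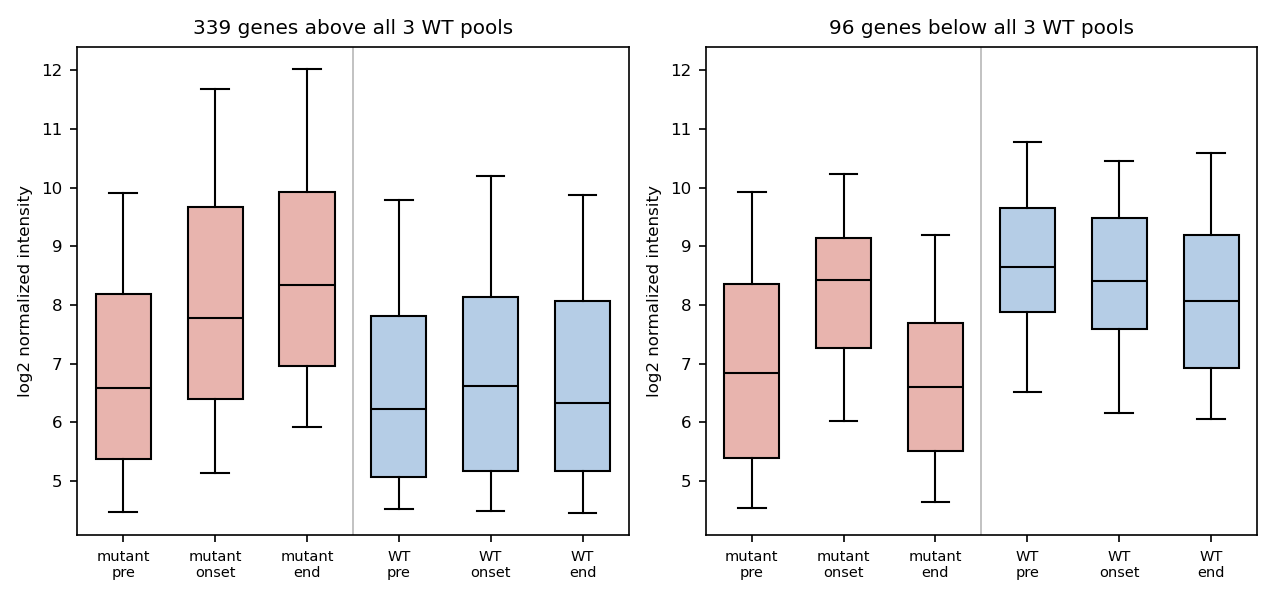
Log2 normalized intensity in the 6 pools of the 339 genes at least 2-fold above all 3 WT pools (left) and the 96 at least 2-fold below them (right), mutant pools left of WT pools; boxes span the quartiles over genes with the median as a line, and whiskers the 5th to 95th percentile. In the higher set the onset mutant pool (median 7.78) lies near the end-stage one (8.34), and in the lower set the presymptomatic mutant pool (6.84) lies near the end-stage one (6.60).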

How the data were processed

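Total RNA of 5 rats a pool was labelled and hybridised to Illumina rat BeadChips, 1 array a pool, and read with BeadStudio 3.2.6, per the submitters' processing notes. The deposited intensity is linear and holds negative values, and its mean lay between 330.9 and 332.4 on the 6 arrays, so background had been subtracted and arrays scaled; the sources used here do not say how. Beside each intensity the authors deposited a detection p-value, per the file headers. A deposited table of normalized intensities, whose method is not stated, ranks the probes of each array identically and served as an alternative.

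Of 22226 probe identifiers, 1 stood in its place in text order; all were sorted as text and set against the rows. The platform table used here names 13192 probes with 1 symbol and leaves 9034 unnamed, among them 66 of the 370 higher and 34 of the 96 lower called probes; RefSeq's table held 13151 of the named ones. Intensities were corrected by normexp with each array's noise regressed from the detection p-values between 0.05 and 0.95, offset by 16, quantile normalized over the 6 arrays and taken to log2 (limma 3.58.1 in R 4.3.3, tested on simulated data; Python 3.11.15 for the rest). A gene is represented by its kept probe of highest mean. Of 59 genes with several kept probes, 1 had probes at least 2-fold apart, Slc25a30.

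limma was fitted to the end-stage mutant pool and the 3 WT pools (2 residual degrees of freedom, prior 5.151), two-sided, with Benjamini-Hochberg adjustment over all kept probes at 0.05, and errors are its standard errors. The number of arrays limits the precision. Genes named are the 20 largest differences each way among genes detected on both end-stage arrays, the 8 largest bounds each way, the named genes among the 15 probes of lowest p each way, Sod1, and members of the lists, always with the 4 of largest difference. The members and lists were chosen with earlier results of these data known. Alternatives changed the background correction, offset, normalization, detection filter, variance prior, WT pools, fold threshold, probe summary and identifier order.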

Additional observations from a re-analysis of the deposited data

Results flagged for a closer look

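Genes whose mutant minus WT difference was at least 2-fold one way at end stage and at least 2-fold the other way at another stage were listed for a closer look. With 1 pool a group these differences between stages were not tested. Against disease onset there were 2 such genes among all genes detected, both sodium channels of pain-sensing neurons. Scn10a had a log2 difference of 3.70 at end stage and -2.35 at onset, and Scn11a had a log2 difference of 2.49 at end stage and -1.04 at onset.

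Against the presymptomatic stage there were 24, of which the 12 in the gene lists are given. Among phagocyte, lysosome and antigen presentation genes, Fcgr2a had a log2 difference of 1.25 at end stage and -1.16 at the presymptomatic stage, Gm2a 1.31 and -1.44, and RT1-A1 1.28 and -1.73. Pltp, the phospholipid transfer protein, had 1.48 at end stage and -1.07 at the presymptomatic stage, and Tgfb1 had 1.56 and -1.65. The collagen genes Col1a1 and Col5a1 had 1.83 and 1.15 at end stage, and -1.03 and -2.19 at the presymptomatic stage. The granulocyte genes S100a8, Defa5 and Mpo had 1.53, 1.73 and 1.08 at end stage, and -1.02, -1.38 and -1.82 at the presymptomatic stage. Rrm2, a subunit of ribonucleotide reductase, had 1.22 at end stage and -1.75 at the presymptomatic stage. Syn2, a synapsin, ran the other way, with -1.13 at end stage and 1.19 at the presymptomatic stage.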

How the results depend on the processing

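No paired analysis was possible for the end-stage contrast because each genotype has 1 end-stage pool. A fit of genotype over the 3 stages asks another question and was not run. The limma count of 466 probes became 190 with neqc, 292 with an offset of 50, 871 with alignment on the 75th percentile, 53 without a detection filter over 22226 probes, and 962 with a trended and robust prior; leaving out 1 WT pool gave 13 to 456. Of these calls, 135 of the 190 by neqc, 461 of the 871 and 12 of the 13 without the onset WT pool were among the 466. The count of 820 genes 2-fold apart became 440 with neqc, 503 with an offset of 50, 2347 at 1.5-fold and 113 at 4-fold, and the count of 435 beyond all WT pools became 230, 280, 1229 and 69 under the same 4 settings; leaving out 1 WT pool gave 492 to 615 of these. The other alternatives kept the 3 counts within 1.5 times. With probe identifiers as deposited, 633 genes were 2-fold apart, but under other names. The limma difference of 295 genes, recomputed 3802 times, crossed the threshold downward 550 times and upward 166 times and never changed sign where called. The stage-matched difference changed sign in 13 of 2360 values and moved by more than the spread of the WT pools in 763. Of these, 187 came with the onset WT pool as reference and 187 with the presymptomatic WT pool. A further 147 came with neqc, 92 with the mean of the WT pools and 92 with an offset of 50. With neqc the stage-matched difference was 0.83 for Cd8a, 1.17 for Ccl2, 0.95 for Cdk1 and -0.27 for Chodl, against 3.27, 3.41, 3.14 and -1.87 as reported. Cdk1 and Chodl then did not pass limma's test (adjusted p = 0.077 and 0.47). Against the presymptomatic WT pool it was -0.294 for Camp, -0.147 for Col1a1, -1.16 for Defa5, -0.911 for Mpo, 0.007 for Myl1, -0.826 for Np4, 0.093 for Nvl, -0.438 for Rrm2, -0.718 for S100a8 and 0.245 for Stmn4. Against the onset WT pool it was -0.041 for Dcn, 0.049 for Nvl and -0.405 for Scn7a. The cause was not tested. Alignment on the 75th percentile moved the median of all genes to -0.1051, against -0.0454 with quantiles. Quantile normalization without the presymptomatic mutant array, added after seeing the data, gave 467, 829 and 432 for the 3 counts.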
